A study of Homo sapiens with 12 samples.

Results

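CCR7, CXCR4 and ACKR3 are 3 receptors for chemokines, the small secreted proteins that guide the movement of immune cells. They were selected on their listed LPS response, by name, from 2 tables in which the authors gave genes whose RNA changed when macrophage-like THP-1 cells met lipopolysaccharide (LPS), a bacterial cell wall component sensed through TLR4. They are 3 of the 3281 genes in either table, and all 3 stand in both. Their RNA moved in 3 different ways. CCR7 was induced by LPS far more in wild-type cells than in S80A cells. ACKR3 was induced far more in S80A cells. CXCR4 was lower in resting S80A cells and went down with LPS in wild-type cells. In S80A cells it went up with the authors' scaling, by about as much as the median listed gene. It did not when libraries were scaled to equal sums over the listed genes, which removes any overall LPS response of these genes.

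THP-1 cells come from a human monocytic leukaemia and become macrophage-like after PMA, a phorbol ester. The cells carried either the wild-type form or the S80A form of NFKB1, in which a serine of the NF-kB subunit p50 is replaced by alanine, and the study asked what phosphorylation of that serine does for transcription induced by LPS. All cells first received PMA (25 ng/ml, 72 hr) and then 4 days without it. RNA was taken at 0 hr or after 3 hr of LPS at 10 ng/ml, which gave 4 groups of 3 libraries, namely wild type at 0 hr, wild type at 3 hr, S80A at 0 hr and S80A at 3 hr. The labels give neither the way the S80A cells were obtained nor whether they stem from 1 clone, so the S80A form and any other difference between the cell populations cannot be told apart. Nor do they say that replicates were separate cultures, and a p-value here measures only spread among the libraries, which may be technical.

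Chemokine receptors span the membrane several times. CCR7 and CXCR4 signal through G proteins of the Gi class and direct cells along gradients of their ligands. CCR7 binds CCL19 and CCL21 and is known for bringing mature dendritic cells and T cells to lymph nodes. CXCR4 binds CXCL12 and is known for holding blood-forming cells and leukocytes in the bone marrow. ACKR3, formerly CXCR7, is an atypical receptor that binds CXCL12 and CXCL11, recruits arrestins without classical G protein signalling, and takes its ligands into the cell for degradation.

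The 3 genes lie at different places of the genome, given here from GENCODE release 29 on GRCh38. CCR7 (ENSG00000126353.3) lies on the minus strand at chr17:40553769-40565472. CXCR4 (ENSG00000121966.6) lies on the minus strand at chr2:136114349-136118165. ACKR3 (ENSG00000144476.5) lies on the plus strand of the same chromosome at chr2:236567787-236582358. The number of other genes overlapping each of them in this annotation was 0. The annotation used to count the reads is not stated, so whether reads were shared with other genes was not tested. The short coding stretch below is shown because it is where classical receptors contact the G protein and where ACKR3 departs from the other 2. Capitals mark the 3 codons of the DRY motif and the next 4 codons. The stretch lies in exon 3 of 3 of CCR7 (chr17:40555381-40555443, minus strand) and begins its motif at codon 153 of 378. It lies in exon 2 of 2 of CXCR4 (chr2:136115490-136115552, minus strand, codon 133 of 352) and in exon 2 of 2 of ACKR3 (chr2:236580865-236580927, plus strand, codon 141 of 362).
CCR7: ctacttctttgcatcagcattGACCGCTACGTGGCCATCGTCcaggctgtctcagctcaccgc
CXCR4: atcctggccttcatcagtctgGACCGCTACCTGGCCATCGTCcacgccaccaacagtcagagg
ACKR3: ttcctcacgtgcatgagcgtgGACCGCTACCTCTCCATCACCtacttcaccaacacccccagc
Of these 7 codons, 6 encode the same residue in CXCR4 and CCR7, 5 in CXCR4 and ACKR3, and 4 in CCR7 and ACKR3. The motif itself is shared by all 3.

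Expression is given as scaled reads, that is, the authors' counts of reads after division by a size factor of each library. Between 1924562 and 5789918 reads per library fell on the 3281 listed genes, which is not the depth of whole libraries. S80A replicate 1 stood apart from the other S80A libraries at both times. On the second principal component (17.6% of the variance) it lay at 16.7 and 16.9, the other S80A libraries lay between 32.7 and 46.7, and the wild-type libraries lay between -40.4 and -25.0. The genotype differences of the 3 receptors are therefore also given without that library. Of 13 monocyte and macrophage markers, 3 were in a table (CD14, CD163 and MERTK), and the other 10 were not analysed here. At 0 hr their summed level was 4530 to 6675 scaled reads (wild type) and 5115 to 9884 (S80A), and at 3 hr it was 1782 to 2553 and 2456 to 3018. Of 22 markers of other cell types, 2 were in a table, CD79B of B cells and CD34 of progenitors, with sums between 20.2 and 45.8 scaled reads over the 12 libraries. The part of these markers in the results was not tested.

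CCR7 RNA was almost absent from resting cells of both genotypes. At 0 hr the 3 wild-type libraries had 1.73, 0 and 2.42 scaled reads (5 reads in all), and the 3 S80A libraries had 0.996, 1.55 and 0 (3 reads in all). The libraries overlapped, and the ratio of S80A to wild type, 0.672, had a 95% counting interval of 0.104 to 3.46. At 3 hr the wild-type libraries had 713, 417 and 507 scaled reads, and the S80A libraries had 39.2, 29.9 and 20.4. Every S80A library lay far below every wild-type library. The S80A mean of 29.8 ± 9.43 (SD, n = 3) was 18.3-fold lower than the wild-type mean of 546 ± 152 (SD, n = 3).

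The difference in CCR7 at 3 hr was -4.16 ± 0.32 (SE) on the log2(scaled reads + 1) scale, with a 95% interval of -4.91 to -3.41 (limma, adjusted p = 0.000756). It was the 14th lowest of the 3281 genes at that time, against a median of 0.19 over all of them. Without S80A replicate 1 it was -4.38 (adjusted p = 0.000412). At 0 hr the difference in CCR7 was -0.29 ± 0.59 (SE) with an interval of -1.78 to 1.20 (limma, adjusted p = 0.732), or -0.40 without S80A replicate 1, and a difference within that interval was not detectable at this depth. These cells were measured in bulk, so fewer CCR7-positive cells and less CCR7 RNA per cell cannot be told apart.

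ACKR3 took the opposite course and became by far the most abundant of the 3 in LPS-treated S80A cells. At 3 hr the S80A libraries had 7848, 8084 and 9696 scaled reads, and the wild-type libraries had 864, 393 and 391. The groups did not overlap, and even the highest wild-type library was far below the lowest S80A library. The S80A mean of 8542 ± 1006 (SD, n = 3) was 15.5-fold above the wild-type mean of 549.6 ± 273 (SD, n = 3). The difference was 4.06 ± 0.35 (SE) log2 with a 95% interval of 3.23 to 4.88 (limma, adjusted p = 0.000807), the 20th highest of 3281 genes. Without S80A replicate 1 it was 4.11 (adjusted p = 0.000926).

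ACKR3 was already somewhat higher in resting S80A cells. At 0 hr the S80A libraries had 258, 122 and 141 scaled reads, and the wild-type libraries had 110.0, 70.0 and 65.3. The groups did not overlap, but the highest wild-type library was close to the lowest S80A library. The ratio of means was 2.12, and the difference of 1.04 ± 0.36 (SE) log2 (95% interval 0.13 to 1.94) did not pass the threshold of 0.05 (limma, adjusted p = 0.0817). The labels do not say that replicate numbers pair the libraries, and the test above does not use them. With the replicate number taken as a block the same difference of 1.04 passed (limma, adjusted p = 0.0230). Over the 18 alternatives the adjusted p ranged from 0.0141 to 0.242, so the call at 0 hr depends on the method. S80A replicate 1 was the highest library here; without it the difference was 0.71 (adjusted p = 0.109).

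CXCR4 was the receptor that differed most between the resting cells. At 0 hr the wild-type libraries had 1027, 1052 and 1264 scaled reads, and the S80A libraries had 259, 238 and 191. The lowest wild-type library was well above the highest S80A library. The S80A mean of 229 ± 34.8 (SD, n = 3) was 4.86-fold lower than the wild-type mean of 1114 ± 130.2 (SD, n = 3). The difference was -2.28 ± 0.17 (SE) log2 with a 95% interval of -2.70 to -1.86 (limma, adjusted p = 0.00328), the 72nd lowest of 3281 genes. Without S80A replicate 1 it was -2.37 (adjusted p = 0.00245).

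At 3 hr the CXCR4 levels of the genotypes came together. The wild-type libraries had 521.5, 457.8 and 572.8 scaled reads, and the S80A libraries had 715, 337 and 355. S80A replicate 1 lay above all wild-type libraries and the other S80A libraries lay below them. The difference was -0.22 ± 0.33 (SE) log2, with a 95% interval of -1.001 to 0.551 (limma, adjusted p = 0.597). Without S80A replicate 1 it was -0.57 ± 0.18 (SE) and passed the threshold (limma, adjusted p = 0.038), so the 3 hr result for CXCR4 rests on that library. Over the 18 alternatives the adjusted p ranged from 0.038 to 0.953.

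**Figure D1:**
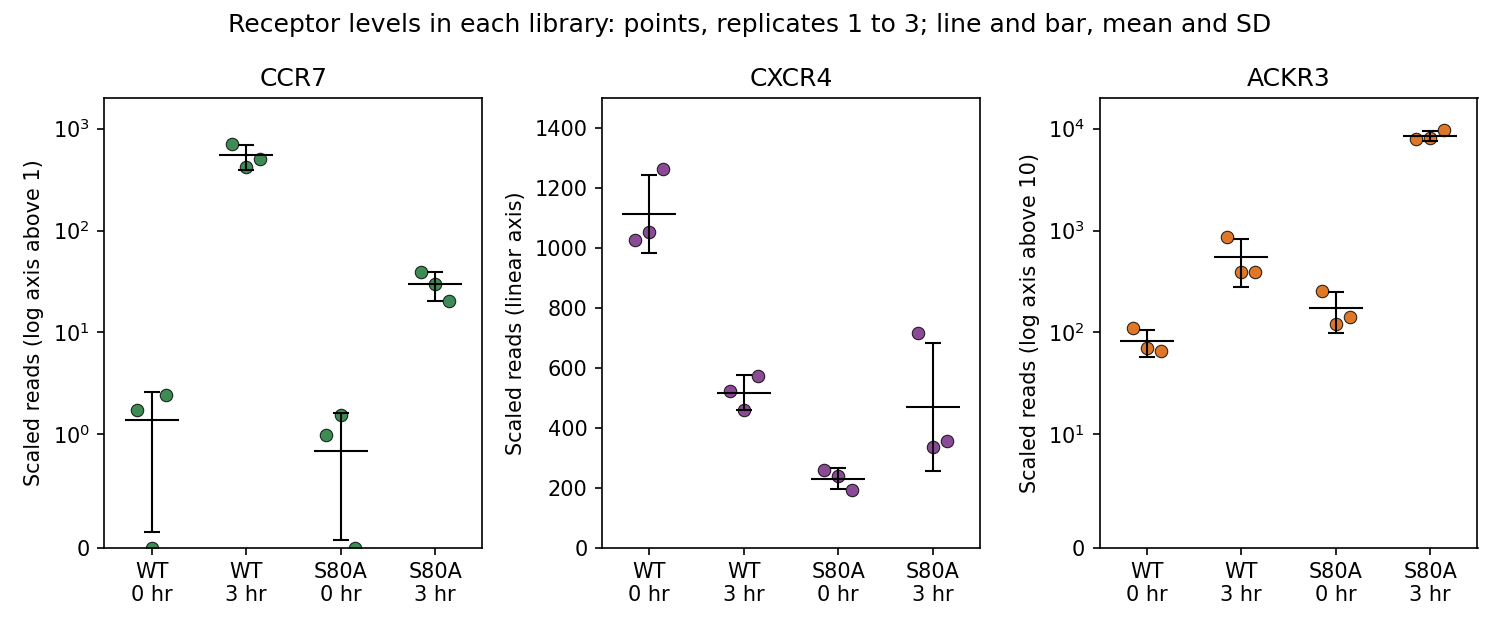
Scaled reads of CCR7, CXCR4 and ACKR3 (one panel each, vertical axis) in the 4 groups (horizontal axis), with points for replicates 1 to 3 and a line and bar for the mean and SD; the axis of CXCR4 is linear and the other axes are logarithmic above the value printed on them. CCR7 is high only in wild-type cells at 3 hr (417 to 713), CXCR4 is highest in wild-type cells at 0 hr (1027 to 1264), and ACKR3 is highest in S80A cells at 3 hr (7848 to 9696).

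Counted together, 1 of the 3 receptors was called at 0 hr (CXCR4, lower in S80A) and 2 of the 3 at 3 hr (CCR7 lower and ACKR3 higher). Such calls were common among genes that respond to LPS: 30.7% of the 3281 genes were called at 0 hr (20.1% higher, 10.6% lower) and 47% at 3 hr (29.2% higher, 17.7% lower). With libraries scaled to equal sums the split turned, to 395 higher and 624 lower genes at 0 hr and 604 and 999 at 3 hr. The first share rests on few libraries, since the 1007 genes called at 0 hr became 497, 529 and 616 without wild-type replicate 3, 2 and 1 and 517 without S80A replicate 2. Groups without overlap were found for 2 of the 3 receptors at each time (CXCR4 and ACKR3, then CCR7 and ACKR3), against 49.1% of all genes at 0 hr (31.6% higher, 17.5% lower) and 59% at 3 hr (35.7% higher, 23.3% lower). The median absolute difference over all genes, called or not, was 0.564 log2 at 0 hr and 0.805 at 3 hr. The called differences were larger, at -2.28 for CXCR4 at 0 hr and -4.16 and 4.06 for CCR7 and ACKR3 at 3 hr. Of those not called, ACKR3 at 0 hr (1.04) was larger, but CCR7 at 0 hr (-0.29) and CXCR4 at 3 hr (-0.22) were smaller in size. Calls favour large differences, so this is a description only.

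**Figure D2:**
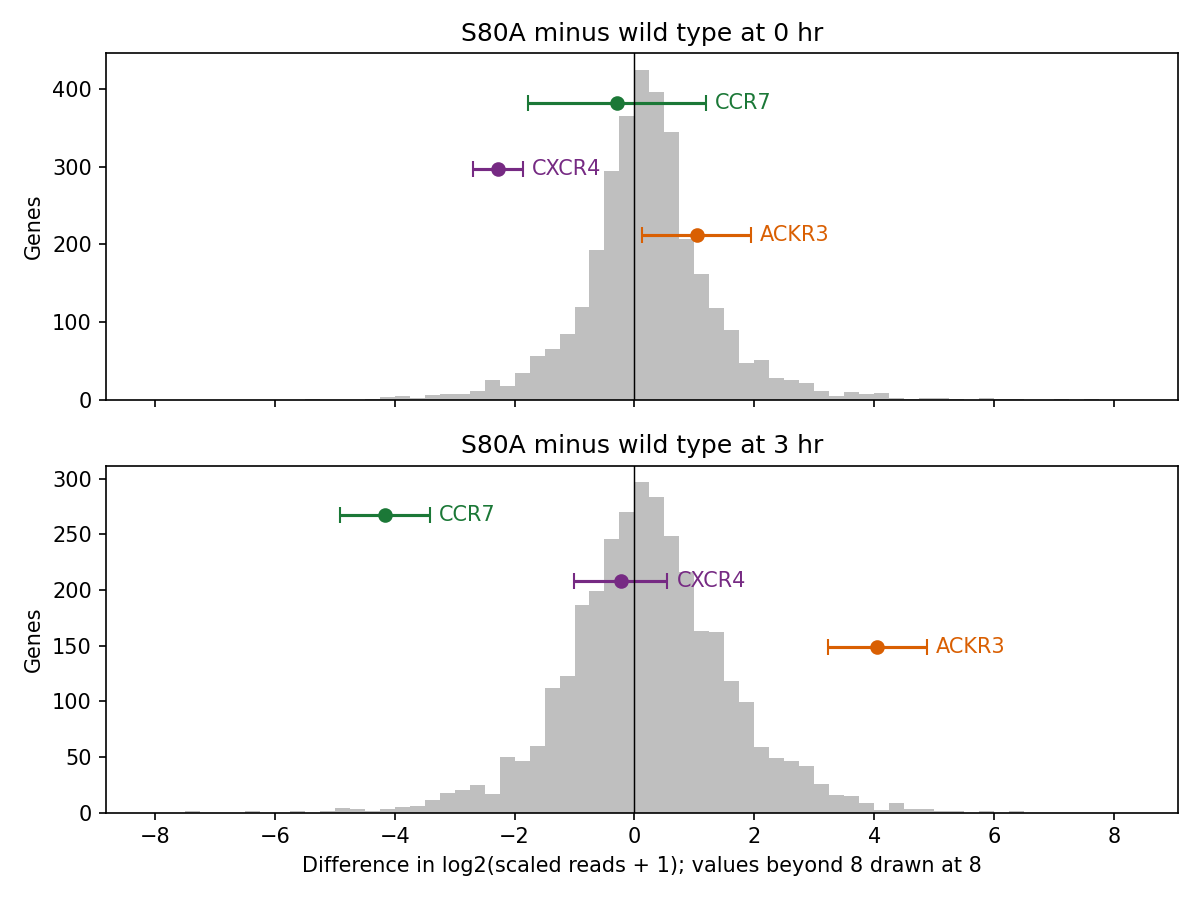
Distribution of the genotype difference (S80A minus wild type, horizontal axis, log2(scaled reads + 1)) over the 3281 listed genes at 0 hr and 3 hr (vertical axis, number of genes), with the 3 receptors as points and 95% intervals as bars. CXCR4 stands on the left at 0 hr (-2.28), and CCR7 (-4.16) and ACKR3 (4.06) stand at opposite ends at 3 hr.

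The responses to LPS are what brought these genes into the tables, so they are given as a description without a test. The number of genes the authors tested is not stated, and their adjusted p-values imply 17486. Of these, 13.4% were listed for wild-type cells (8.24% rising, 5.11% falling) and 14.3% for S80A cells (8.67% rising, 5.67% falling). In the authors' deposited table CCR7 has a log2 fold change of 7.87 (wild type) or 4.01 (S80A). In the same tables ACKR3 has 2.64 and 5.43, and CXCR4 has -1.08 and 1.01. CXCR4 is near the authors' limit of an absolute value of 1, with 169 of the 2335 wild-type and 17 of the 2508 S80A genes closer to it.

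From the scaled reads, mean CCR7 rose 394-fold in wild-type and 35.1-fold in S80A cells. Few reads stood at 0 hr, so the 95% counting intervals of the read ratios were wide. They were 168 to 1211 in wild type and 10.7 to 161 in S80A. These intervals cover counting error only and not the spread between libraries. Mean ACKR3 went up 6.72-fold in wild-type and 49.2-fold in S80A cells. Taking libraries of the same replicate number, its folds were 7.86, 5.62 and 5.98 in wild type and 30.4, 66.4 and 68.9 in S80A. Each S80A fold was above each wild-type fold, with replicate 1 the lowest of the S80A cells.

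CXCR4 was 1 of 8 genes, 0.512% of the 1562 in both tables, that were listed with opposite directions. Its mean was 2.15-fold lower after LPS in wild-type cells and 2.05-fold higher in S80A cells. By replicate number its log2 changes were -0.98, -1.20 and -1.14 in wild type and 1.46, 0.50 and 0.89 in S80A. The direction was therefore the same in all 3 libraries of each genotype on the authors' scaling. It depended on that scaling in S80A cells. There the median change of all listed genes was 0.94 log2 with the authors' size factors, and CXCR4, at 0.95 ± 0.35 (SE), was at that median. When libraries were instead scaled to equal sums over the listed genes, the median was -0.47 and CXCR4 in S80A cells was -0.52. The listed genes were kept for changing with LPS, and in the authors' S80A list 1516 rose and 992 fell. The median with the authors' factors reflects that selection, and equal sums remove any overall LPS response of these genes. Neither shows which scaling is right. The fall in wild-type cells kept its sign, at -1.11 ± 0.16 (SE) with the authors' factors and -2.50 with equal sums.

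The difference between the responses (S80A minus wild type) depended little on the scaling. It was -3.87 ± 0.68 (SE) log2 for CCR7, 3.02 ± 0.52 for ACKR3 and 2.06 ± 0.39 for CXCR4, all as a description. Among 3281 genes these were the 22nd lowest, the 31st highest and the 121st highest. For CXCR4 it was mostly the resting level that separated the genotypes, whereas for CCR7 and ACKR3 it was mostly the level after LPS. Without S80A replicate 1 at both times the values were -3.98, 3.40 and 1.80.

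**Figure D3:**
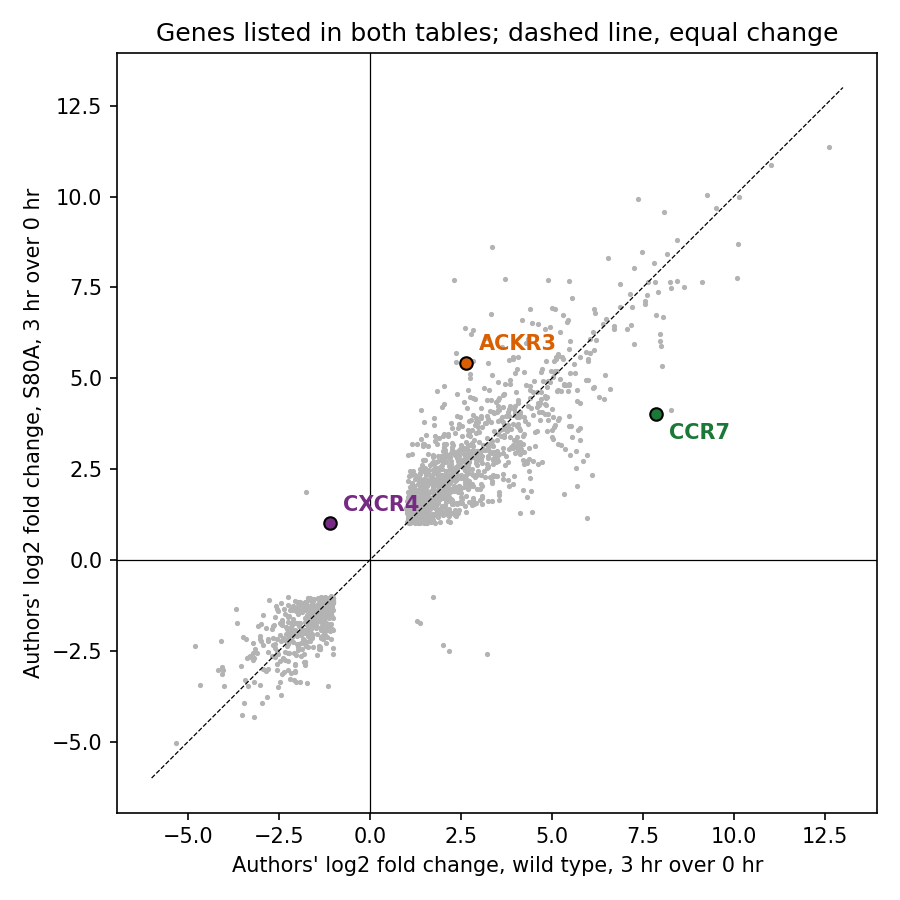
Log2 fold change with LPS in the authors' tables, for wild-type cells (horizontal axis) and S80A cells (vertical axis), for the 1562 genes in both tables, with equal change as a dashed line. CCR7 lies below the line (7.87 and 4.01), ACKR3 above it (2.64 and 5.43), and CXCR4 in the nearly empty area of opposite signs (-1.08 and 1.01).

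Levels can be compared between genes only per length, and scaled reads per kilobase of exon (2508 bases for CCR7, 2224 for CXCR4 and 2258 for ACKR3) were used for this. Resting wild-type cells held mainly CXCR4, with 501 ± 58.5 scaled reads per kilobase (SD, n = 3 here and below), then ACKR3 with 36.2 ± 10.9 and CCR7 with 0.552 ± 0.497. After LPS the 3 receptors stood at nearly the same level in wild-type cells: 243 ± 121 for ACKR3, 233 ± 25.9 for CXCR4 and 218 ± 60.4 for CCR7, an order that does not exceed the spread. Resting S80A cells held CXCR4 at 103 ± 15.6 and ACKR3 at 76.8 ± 32.7, neighbours within their spread, and CCR7 at 0.339 ± 0.313. After LPS the S80A order was ACKR3 at 3783 ± 445, CXCR4 at 211 ± 96.0 and CCR7 at 11.9 ± 3.76, each step larger than the spread.

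As shares of their sum per kilobase, the receptors therefore changed places. CXCR4 made up 93.1% ± 2.43 of the 3 in resting wild-type cells and 5.35% ± 2.68 in S80A cells after LPS. ACKR3 made up 6.84% ± 2.42 and 94.3% ± 2.78 in the same groups. In wild-type cells after LPS the shares were near equal, 31.3% ± 0.782 for CCR7, 34.8% ± 7.75 for CXCR4 and 33.9% ± 7.76 for ACKR3. In S80A cells after LPS the share of CCR7 was 0.304% ± 0.115 (all SD, n = 3). Shares of a sum are tied to each other, so a rise of ACKR3 alone lowers the share of the others.

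**Figure D4:**
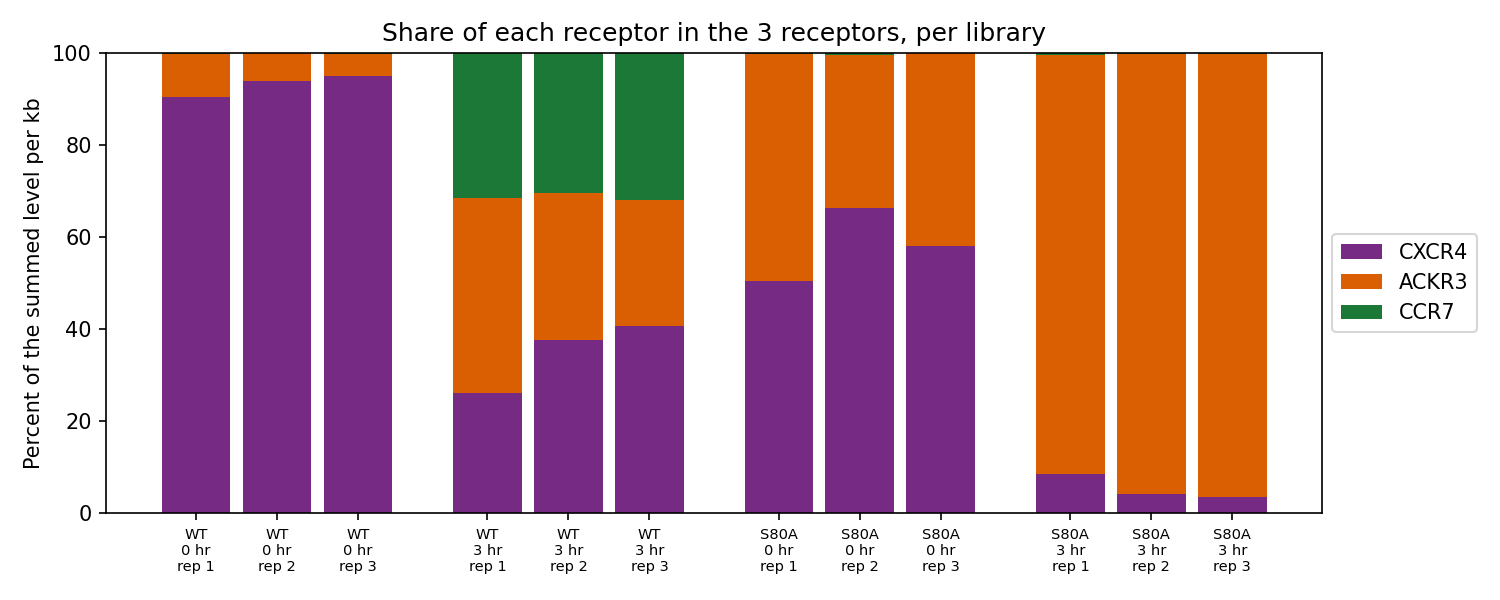
Share of each receptor (vertical axis, percent of the summed scaled reads per kilobase of the 3) in each of the 12 libraries (horizontal axis). CXCR4 takes at least 90.3% in each wild-type library at 0 hr, the 3 receptors share the wild-type libraries at 3 hr, and ACKR3 takes 91.2% to 96.2% in S80A cells at 3 hr.

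The promoter of CXCR4 is shown because CXCR4 was the member whose resting level differed most. It was the 1 of the 3 genes matched in the promoter table from RefSeq (GRCh38.p14). The 250 bases before its start site at position 136118149 (chr2:136118150-136118399, minus strand) are given 5′ to 3′, with capitals for the only match to a hypoxia-response core, which begins 39 bases before the start site.
CXCR4 promoter: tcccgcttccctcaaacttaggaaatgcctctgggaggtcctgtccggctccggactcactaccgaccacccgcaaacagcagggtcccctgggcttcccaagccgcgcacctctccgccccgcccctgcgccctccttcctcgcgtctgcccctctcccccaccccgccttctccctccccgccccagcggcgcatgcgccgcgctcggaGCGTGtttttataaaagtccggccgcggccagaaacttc
Motifs were searched on both strands in windows of 300 bases around each of 3 CXCR4 start sites. The NF-kB consensus and the AP-1 motif TGANTCA had 0 matches in all 3 windows, and they occurred in 5.91% and 7.71% of all 35116 windows. The hypoxia-response cores ACGTG and GCGTG had 1, 0 and 2 matches, and 48.4% of all windows held at least 1. These are letters in a window and say nothing of binding.

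Other chemokine receptors responded to LPS too, but few were in a table. Of 20 others, 5 were (CCR1, CCR4, CCRL2, CXCR2 and CXCR5), with 3 rising and 1 falling in wild-type and 2 rising and 2 falling in S80A cells in the authors' deposited tables. In S80A against wild-type cells 1 was higher and 2 were lower at each time by limma, where 30.7% and 47% of all genes were called. The list had a median difference of -0.57 log2 at 0 hr and -0.96 at 3 hr, against 0.19 for all genes at both times; without S80A replicate 1 the 3 hr counts were 0 and 2. CXCR2, a receptor for neutrophil-attracting chemokines, was lower in S80A cells at both times. Its means were 379.5 ± 31.9 and 74.7 ± 35.8 scaled reads in wild-type and S80A cells at 0 hr, and 51.6 ± 5.41 and 11.5 ± 3.87 at 3 hr (SD, n = 3). The difference in CXCR2 was -2.44 ± 0.36 (SE) log2 at 0 hr (adjusted p = 0.00891) and -2.11 ± 0.27 at 3 hr (adjusted p = 0.00183).

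CCRL2, which binds the attractant chemerin without signalling, rose with LPS in both genotypes, from 71.6 to 749 scaled reads in wild type and from 44.5 to 1018 in S80A. Its difference was -0.70 ± 0.19 (SE) log2 at 0 hr (limma, adjusted p = 0.0467), a call lost in 9 of 18 alternatives, among them the omission of any 1 library other than S80A replicate 1, with values of -0.84 to -0.65. At 3 hr it was 0.45 ± 0.29 (adjusted p = 0.240). CXCR5, a receptor that leads B cells to follicles, had 0.826 ± 0.0350 scaled reads in resting wild-type and 39.8 ± 27.8 in resting S80A cells. Its difference at 0 hr, 4.07 ± 0.77 (SE) log2 (adjusted p = 0.0162), did not pass without wild-type replicate 1, 2 or 3 (4.09, 4.06 and 4.06) or S80A replicate 2 (3.66). At 3 hr its difference, 1.88 ± 0.56 (SE) log2 (adjusted p = 0.0311), did not pass without S80A replicate 1 (1.71), nor without S80A replicate 3 or wild-type replicate 2 or 3 (1.80, 1.31 and 1.93). With equal sums it was 1.42 and did not pass either. CCR4, known from T cells, had 20.8 ± 9.85 scaled reads in the wild type and 11.2 ± 8.30 in S80A at 3 hr. CCR1, an inflammatory receptor of monocytes named after its values were seen, had 1983 ± 708 and 623.5 ± 235.9 scaled reads at 3 hr. That difference, -1.67 ± 0.41 (SE) log2 (adjusted p = 0.0160), did not pass without wild-type replicate 2 (-1.47) or 3 (-1.53).

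Of 7 ligands of the 3 receptors, 4 were in a table; by the authors' deposited tables all 4 rose with LPS in wild-type cells, as did 3 in cells with S80A. CCL19, a ligand of CCR7, was low in S80A cells together with its receptor. Wild-type cells had 0.826 ± 0.807 scaled reads of it at 0 hr and 67.2 ± 12.4 at 3 hr (SD, n = 3), and S80A cells had 0 in all 3 libraries and then 7.57 ± 8.03. The difference in CCL19 at 3 hr was -3.38 ± 0.61 (SE) log2 (limma, adjusted p = 0.00499).

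RNA of the chemokine ligands of ACKR3, CXCL12 and CXCL11, had no called difference at either time. CXCL12, shared by CXCR4 and ACKR3, had 152 ± 74.0 scaled reads in the wild type and 298 ± 180 in S80A at 3 hr (limma, adjusted p = 0.287). CXCL11 had 5689 ± 1688 and 4571 ± 3536 (adjusted p = 0.459). ADM encodes adrenomedullin, a vasodilator peptide that ACKR3 is reported to bind. It was higher in S80A cells, with 43.8 ± 11.0 against 382.6 ± 128.9 scaled reads at 0 hr and 125.4 ± 46.9 against 464.7 ± 100.6 at 3 hr, a difference of 1.93 ± 0.34 (SE) log2 at 3 hr (limma, adjusted p = 0.00467). Of the 4 ligands, 1 was higher and 0 were lower at 0 hr, and 1 was higher and 1 lower at 3 hr. These counts stand beside 30.7% and 47% of all genes called. The medians were 0.06 and 0.11 log2, against 0.19 for all genes at both times.

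**Figure D5:**
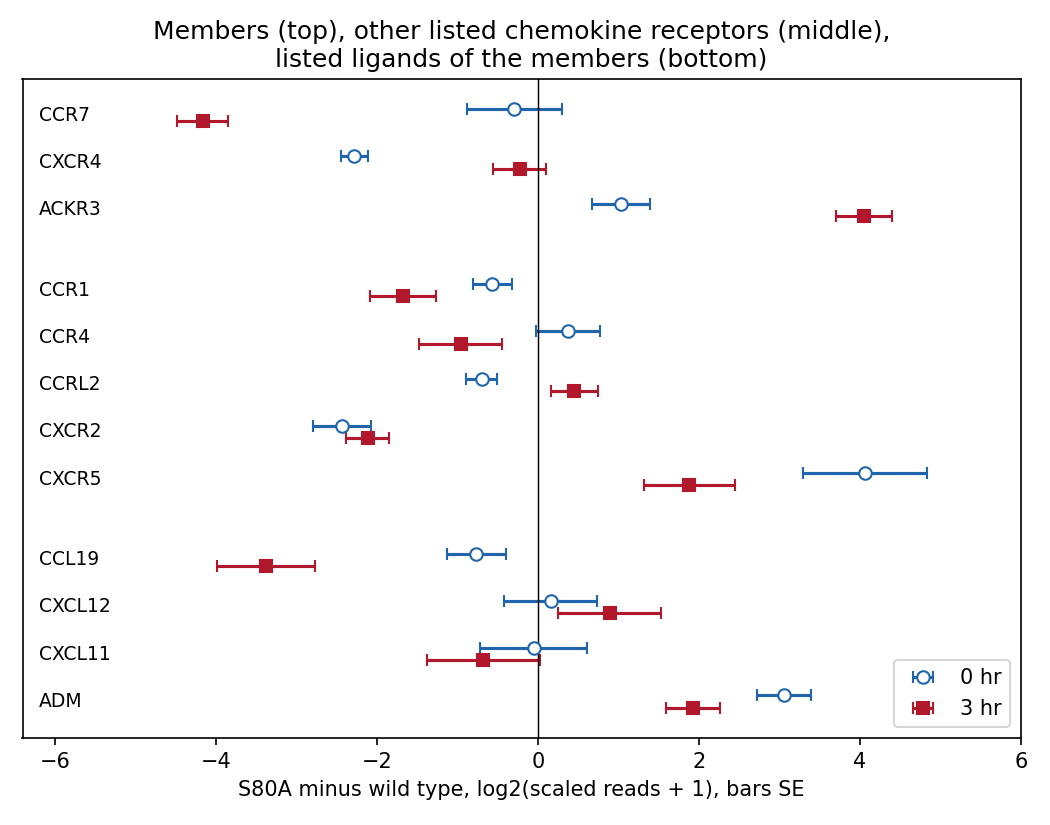
Genotype difference (S80A minus wild type, horizontal axis, log2(scaled reads + 1), bars for the SE) at 0 hr (open circles) and 3 hr (filled squares) for the 3 receptors, the 5 other chemokine receptors and the 4 ligands in the tables (one line per gene on the vertical axis). CCR7 and its ligand CCL19 lie together on the left at 3 hr (-4.16 and -3.38), CXCR2 lies on the left at both times, and ADM lies on the right at both times.

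Among genes that switch receptors off, 7 of 20 were in a table, with 2 rising and 3 falling in wild-type and 3 and 3 in S80A cells. RGS16, which speeds up the inactivation of G proteins coupled to receptors such as CXCR4, was higher in S80A cells at both times. It had 163 ± 43.0 scaled reads in the wild type and 1580 ± 566 in S80A at 0 hr, and 5181 ± 1497 and 28011 ± 9641 at 3 hr. The difference in RGS16 was 3.23 ± 0.36 (SE) log2 at 0 hr (adjusted p = 0.00463) and 2.40 ± 0.35 at 3 hr (adjusted p = 0.00257). RGS18 and ADRBK2 (GRK3, a kinase that marks activated receptors for arrestins), named after their values were seen, were lower in S80A cells at both times, by limma. At 3 hr their differences were -3.03 ± 0.69 (adjusted p = 0.0119) and -1.16 ± 0.27 (adjusted p = 0.0125). The other listed members named by size of change, RGS14, RGS19 and RGS20, were not called. Of the 7, 1 gene was thus higher and 2 were lower at each time, with medians of 0.07 and -0.14 log2. Over all genes 20.1% were higher and 10.6% lower at 0 hr, and 29.2% and 17.7% at 3 hr, with medians of 0.19. Without S80A replicate 1 the list had 2 higher and 2 lower at 3 hr, against 1090 and 698 of all 3281 genes.

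Signalling genes downstream of the receptors were scarcely in the tables, with 3 of 23 (GNAI1, PIK3R5 and JAK2). PIK3R5, a subunit of the PI3-kinase used by chemokine receptors in leukocytes, rose in both genotypes, to 2516 ± 268 scaled reads in wild-type and 4714 ± 689 in S80A cells (limma at 3 hr, 0.90 ± 0.21 (SE) log2, adjusted p = 0.0126). Without wild-type replicate 2 it was 0.81 and did not pass, and with equal sums it was 0.46. GNAI1, a Gi subunit, was higher in S80A cells at 0 hr (1.47 ± 0.26, adjusted p = 0.0128) but not without wild-type replicate 2 or S80A replicate 2 (adjusted p = 0.0520 and 0.0518, the highest over its alternatives being 0.0520). JAK2 was called at neither time. The list of 3 had 1 gene higher and 0 lower at each time, where 30.7% and 47% of all genes were called. Its medians were 0.34 and 0.47 log2, against 0.19 for all genes at both times.

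In dendritic cells CCR7 belongs to a set of maturation genes. Of 18 others in that set, 14 were in a table. By the authors' deposited lists all 14 rose with LPS in wild-type cells, 12 rose in cells with S80A, and 0 fell. At 3 hr 4 of the 14 were called higher in S80A cells and 0 lower, against 29.2% higher and 17.7% lower over all genes. The 4 were TRAF1 and, named after their values were seen, BIRC3, CD40 and MARCKSL1. For the 3 hr difference TRAF1 was called in all 18 alternatives, BIRC3 missed the threshold in 1, CD40 in 6 and MARCKSL1 in 7. MARCKSL1 missed it also without S80A replicate 1, and CD40 and MARCKSL1 missed it with TMM and equal-sum scaling. The median was 0.75 log2 at 3 hr and 0.26 at 0 hr, when 3 were higher and 2 lower. Over all genes 20.1% were higher and 10.6% lower at 0 hr. The higher genes were TRAF1 and, named after their values were seen, IL7R and MARCKSL1. The lower genes were IDO1 and, also named afterwards, CCL22. The call of IDO1 rested on 5 wild-type reads against 0 S80A reads and was lost in 12 alternatives. IL7R lost its 0 hr call in 7, TRAF1 in 4 and CCL22 in 1. The counts without S80A replicate 1 were 4 and 1 at 0 hr and 4 and 0 at 3 hr, not all of them the genes named. TRAF1, an adaptor of TNF receptors, had 20969.9 ± 1887 scaled reads in the wild type and 50108 ± 1159 in S80A at 3 hr, a difference of 1.26 ± 0.18 (SE) log2 (limma, adjusted p = 0.00247). The lysosomal protein LAMP3 had 2258 ± 713 and 4037 ± 2107 (adjusted p = 0.184). The checkpoint ligand CD274 had 2609 ± 237 and 2299.8 ± 1362 scaled reads, and IDO1, which breaks down tryptophan, had 2089 ± 467 and 2106 ± 1470.3; neither was called at 3 hr.

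Known regulators of CXCR4 transcription were well covered, with 11 of 15 in a table. In S80A against wild-type cells 1 was higher and 2 were lower at 0 hr, and 2 were higher and 3 lower at 3 hr, near the shares over all genes (30.7% and 47% called), with medians of 0.09 and -0.02 log2. HIF1A, the hypoxia-inducible activator of CXCR4, was higher in S80A cells at both times, including 0 hr, when CXCR4 was lower there. It had 1469 ± 125 scaled reads in the wild type and 3220 ± 265 in S80A at 0 hr (1.13 ± 0.13 (SE) log2, limma, adjusted p = 0.00458), and 4923 ± 351 and 15428 ± 2058 at 3 hr (1.64 ± 0.20, adjusted p = 0.00164). KLF2, a zinc-finger factor that restrains inflammatory genes, had 79.99 ± 36.0 scaled reads in the wild type and 23.6 ± 5.51 in S80A at 3 hr (-1.62 ± 0.41, adjusted p = 0.0177). KLF2 lost that call in 4 alternatives, the highest adjusted p over its alternatives being 0.134. Among the 4 were the fits without wild-type replicate 2 (-1.36) or 3 (-1.42) or S80A replicate 2 (-1.54). NFKB1 itself, which the S80A form affects as a protein, had 23290.2 ± 713 and 23199 ± 4621 scaled reads at 3 hr (adjusted p = 0.936), and EGR1 had 502 ± 297 and 314 ± 112. The other regulators called by limma, named after their values were seen, were GFI1, CEBPA and FOXO1. GFI1 was lower in S80A cells, by -2.10 ± 0.23 (SE) log2 at 0 hr (adjusted p = 0.00458) and -1.63 ± 0.28 at 3 hr (adjusted p = 0.00444). CEBPA was lower by -1.01 ± 0.25, a call lost in 5 alternatives, and by -1.10 ± 0.20. FOXO1 was higher at 3 hr only, with 25.4 ± 1.77 against 323 ± 156 scaled reads (3.47 ± 0.42, adjusted p = 0.00166). None of these values tests whether a factor acted on CXCR4.

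Genes were then ranked by how closely their profile over the 12 libraries followed that of each receptor, as the root mean square difference of log2(scaled reads + 1) after centring each gene, among the 3078 genes with a mean of at least 10 scaled reads. For CCR7 the nearest were NEU4 (0.90), CCM2L (0.98), IL23A (1.03), LAD1 (1.13) and GBP1P1 (1.18). IL23A, the p19 subunit of the cytokine IL-23, went up from 26.5 to 10184 scaled reads (wild type) and from 13.7 to 1339 (S80A). CXCR4 was most closely followed by PMP22 (0.36), PRLR (0.52), NOP16 (0.55), FERMT1 (0.57) and PRRG4 (0.57). PMP22, a membrane protein of myelin, went from 112 to 41.4 and from 23.2 to 38.2 scaled reads. ACKR3 was most closely followed by PDGFB (0.62), SEMA6D (0.71), LOC102724493 (0.79), GPRC5A (0.80) and ARRDC3 (0.83). PDGFB, a growth factor for vessel-supporting cells, went from 12.2 to 94.4 and from 14.9 to 1304 scaled reads. ARRDC3, an arrestin-like adaptor, went from 181 to 1047 and from 529 to 7358. The receptors themselves lay far apart on this measure, with 3.47 between CCR7 and CXCR4, 3.14 between CCR7 and ACKR3 and 2.90 between CXCR4 and ACKR3. Likeness of profile was a description; the 5 names shifted with the settings, of which 2 or 3 were shared with each alternative ranking.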

How the data were processed

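Per the submitters' processing notes, the build was GRCh38 and the tools included HISAT, HTSeq and DESeq2, besides FastQC, StringTie and Cuffdiff; versions, annotation and strand setting are not stated. Per the labels' protocols, stranded poly(A) libraries were sequenced on an Illumina NextSeq as 75-base single reads with a target of 20 M. The authors deposited 2 tables, 1 per genotype, holding only genes past their thresholds (adjusted p-value below 0.01, log2 fold change above 1 in size), and a normalized signal for each library. The deposited signal is reads over the library's size factor (0.834 to 1.29): 100% of values were whole multiples of 1 read to within 0.01 reads. Other genes were not analysed here.

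The members, gene lists and tests were chosen with earlier results of these data known. Genotype differences were tested per time with limma 3.58.1 (R 4.3.3) on log2(scaled reads + 1), a scale that understates changes of low genes, over 3281 genes with Benjamini-Hochberg adjustment and a threshold of 0.05. LPS responses were not tested. Named genes were the 3 members, up to 4 listed genes per list with the largest authors' fold change, and the 5 nearest profiles per member; others were named after their values were seen. The alternatives were pseudocounts of 0.5 and 5, TMM and equal-sum scaling, a minimum mean of 10 scaled reads, leaving out each library, other limma fits and, chosen after seeing the data, edgeR 4.0.16 and DESeq2 1.42.0 on the recovered reads and list counts without S80A replicate 1. edgeR and DESeq2 were alternatives only. Levels per kilobase were also computed with the length of the longest annotated transcript. CXCR4 then moved up by more than its SD in wild-type cells at 0 hr (588) and 3 hr (273). It did so too in S80A cells at 0 hr (121, against 78.7 for ACKR3). In wild-type cells at 3 hr CCR7 was 251 and ACKR3 249, so the order there changed with the length used. Replicate numbers were taken as pairing wild-type and S80A libraries at 0 hr in the block fit. Same-numbered libraries deviated together there (r = 0.196, 0.272 and 0.267 over 3078 genes), but the labels state no pairing. At 3 hr 1 pair missed the limit of 0.1. Same-numbered libraries at 0 hr and 3 hr also deviated together (r = 0.171 to 0.376 in wild type, 0.206 to 0.340 in S80A). The SEs of the responses leave this out. Python 3.11.15 with matplotlib 3.10.9 drew the figures. Intervals of read ratios are exact 95% intervals that cover counting error only.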

Additional observations from a re-analysis of the deposited data

Results flagged for a closer look

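The LPS response of CXCR4 went in opposite directions in the 2 genotypes: all 3 wild-type changes were below 0 and all 3 S80A changes above 0, by replicate number and with the authors' size factors. The S80A response exceeded the wild-type response by 2.06 log2. The difference was not tested, because CXCR4 was chosen for its responses. With equal-sum scaling the S80A response was -0.52 and the wild-type response -2.50, both below 0. Equal sums remove any overall LPS response of the listed genes, so they cannot show which direction in S80A cells is right.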

How the results depend on the processing

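CCR7 and ACKR3 at 3 hr and CXCR4 at 0 hr kept direction and call in all 18 alternatives, with adjusted p-values of 1.77e-30 to 0.00655, 1.19e-25 to 0.00655 and 1.11e-27 to 0.0218. ACKR3 at 0 hr passed, at 1.04, with the replicate block (adjusted p = 0.0230), the 12-library fit (0.0498) and the limma fit with trend and robust spread (0.0489), and at 1.08 by edgeR (0.0377) and DESeq2 (0.0141) with the authors' factors. Leaving out 1 library gave 0.711 to 1.27 for ACKR3 at 0 hr, -0.829 to 0.0995 for CCR7 at 0 hr (above 0 without S80A replicate 3, 0.0995, and without wild-type replicate 3, 0.0578), -0.574 to -0.0319 for CXCR4 at 3 hr, and 1.71 to 2.25 for its response difference. CCR7 at 0 hr could not be fitted under the minimum of 10.

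For the responses, a pseudocount of 5 gave CCR7 6.42 in wild type and 2.55 in S80A. Equal sums gave 7.05 and 3.01 for CCR7, -2.50 and -0.521 for CXCR4, and 1.28 and 4.21 for ACKR3; TMM gave -1.73 and 0.318 for CXCR4 and 2.05 and 5.05 for ACKR3. These scalings moved the median of all genes: from 0.79 to 0.17 (TMM) and -0.56 (equal sums) in wild type, from 0.94 to 0.34 and -0.47 in S80A, and for the genotype difference from 0.19 to 0.01 and -0.11 at 0 hr and to -0.01 and -0.24 at 3 hr. Relative to it, CXCR4 at 0 hr was -2.47, -2.49 and -2.52, and at 3 hr CCR7 was -4.35, -4.34 and -4.32 and ACKR3 3.87, 3.86 and 3.85.

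At 0 hr 660 genes were higher and 347 lower in S80A cells, but 492 and 457 with TMM and 395 and 624 with equal sums; edgeR with TMM factors and DESeq2 with its own called 528 and 562 lower. At 3 hr the split was 959 and 582, then 798 and 743, then 604 and 999, and lower genes were 383 and 363 without wild-type replicate 2 and 3. Counts without 1 library ranged from 497 to 1200 at 0 hr and 1055 to 1788 at 3 hr. The replicate block gave 1009 and 1493 calls and, besides ACKR3, changed no call of the 3 receptors; at 3 hr not every library deviated most like its own number. Of 23 list genes called at each time, 12 and 16 were called in every alternative, and 0 of 413 and 414 values changed sign. Few reads limit CCR7 at 0 hr.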

Other observations

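Of 18 other chemoattractant receptors, CCRL2 among them again, 8 were in a table; 3 were higher and 4 lower in S80A cells at 0 hr, and 3 were higher and 1 lower at 3 hr (limma, adjusted p under the threshold of 0.05), where 30.7% and 47% of all genes were called, with medians of -0.60 and -0.04 log2. Without S80A replicate 1 the counts were 2 and 4, and 3 and 3. Of the 7 calls at 0 hr, CCRL2 was lost in 9 of 18 alternatives, S1PR1 in 5, P2RY2 in 4 and C3AR1 in 3. PTAFR, the receptor for platelet-activating factor, was lower in S80A cells. At 0 hr its means were 129 ± 35.6 scaled reads (wild type) and 13.98 ± 7.79 (S80A), and they were 872 ± 60.8 and 115 ± 61.8 at 3 hr (SD, n = 3), a difference of -3.03 ± 0.36 (SE) log2 at 3 hr (limma, adjusted p = 0.00164).

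P2RY12, an ADP receptor of platelets and microglia, was higher in S80A cells, with 12.6 ± 2.44 against 230.2 ± 32.0 scaled reads at 0 hr and 2.25 ± 1.95 against 89.3 ± 37.5 at 3 hr, a difference of 4.97 ± 0.65 (SE) log2 at 3 hr (limma, adjusted p = 0.00190). C5AR2, a receptor for complement C5a that like ACKR3 lacks classical G protein signalling, was named after its values were seen. At 0 hr it had 364 ± 44.5 scaled reads (wild type) and 1756 ± 340 (S80A), and it had 109 ± 16.2 and 2499 ± 1086 at 3 hr, a difference of 4.41 ± 0.39 (SE) log2 at 3 hr (limma, adjusted p = 0.000898).

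Of the 3 macrophage markers in a table, MERTK, a receptor for the uptake of dying cells, was higher in S80A cells at both times. It had 899 ± 101 and 2114 ± 376 scaled reads in wild-type and S80A cells at 0 hr, and 77.0 ± 10.2 and 483 ± 74.3 at 3 hr, a difference of 2.63 ± 0.22 (SE) log2 at 3 hr (limma, adjusted p = 0.000785). CD14, the LPS co-receptor, had 2489 ± 180 and 3995 ± 2024 scaled reads at 0 hr. The scavenger receptor CD163 had 2297 ± 836 and 1015 ± 136. Neither was called at either time with all libraries, where 20.1% of all genes were called higher at 0 hr and 29.2% at 3 hr. Without S80A replicate 1 the list had 2 genes higher at 3 hr, against 1090 of all 3281 genes.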
